A study of Mus musculus with 21 samples.

Results

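TRiC, also called CCT, is the chaperonin of the cytosol, and the 8 genes described here, Tcp1, Cct2, Cct3, Cct4, Cct5, Cct6a, Cct7 and Cct8, encode its 8 subunits. They were chosen by symbol, as 8 of the 47729 genes in the count table, and all 8 passed the filter on low counts in both experiments. The transcripts are those of hematopoietic stem cells (HSCs), rare bone marrow cells that renew all blood lineages, sorted from mice as CD48- CD150+ cells of the LSK fraction. There were 21 libraries in 7 groups, 3 to a group. The treatment experiment held Mx1-Cre;Atg5fl/fl mice given bortezomib, WT mice given bortezomib, Mx1-Cre;Atg5fl/fl mice given DMSO and WT mice given DMSO, with 10 mg/kg bortezomib or 10% DMSO injected behind the eye 48 h and 24 h before the cells were taken. In the reporter experiment, untreated RFP-EGFP-LC3 mice gave HSCs sorted as RFP single positive, RFP GFP double positive or double negative. Bortezomib inhibits the proteasome, Atg5 is needed to attach LC3 to autophagosome membranes, and the Mx1-Cre driver is active in blood and other tissues after interferon signalling. The labels name neither an age nor how Cre was induced, and do not say whether replicates were separate animals, so p-values measure only the spread between these samples.

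TRiC is a closed barrel of 2 stacked rings, each built from 1 copy of every subunit in a fixed order, and it folds proteins inside its chamber in a cycle driven by ATP. Actin and tubulin are its best known clients, and many proteins with WD40 repeats also pass through it. Prefoldin hands unfolded actin and tubulin chains to the chaperonin, and phosducin-like proteins act as its cofactors. In yeast the subunits of one side of the ring (Tcp1, Cct2, Cct4 and Cct5) bind ATP more tightly than those of the other side (Cct3, Cct6, Cct7 and Cct8), and the genes are given below in that order.

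Library totals were 15005500 to 31481691 counts and 16095 to 18899 genes were detected. The 8 genes together took 0.296% to 0.681% of the counts of a library, or 44909 to 178611 counts. Values are CPM (reads of a gene scaled to a common library size) on a scale normalised by TMM (trimmed mean of M values) over all 21 libraries, and fold changes come from edgeR's quasi-likelihood fit with Benjamini-Hochberg adjustment over all genes tested, at a threshold of 0.05. The whole-gene count of Atg5 was 91.6 to 139 CPM in Mx1-Cre;Atg5fl/fl bortezomib libraries, 70.1 to 131 in WT bortezomib, 105 to 111 in Mx1-Cre;Atg5fl/fl DMSO and 39.1 to 74.2 in WT DMSO. It cannot separate a deleted stretch from the rest of the transcript, so it checks nothing, and the Mx1-Cre;Atg5fl/fl groups are called knockout-labelled. Kit, Ly6a and Slamf1, markers of the sorted cells, had counts in every library, while the lymphoid genes Pax5, Ms4a1, Cd3e and Cd3g were at 0 in all 21. Cd48, which the sort selects against, was present at 1.90 to 56.2 CPM. On the third principal component of the treatment experiment 3 libraries numbered 3 lay away from the other 9, that of knockout-labelled bortezomib at -34.7, of WT bortezomib at -24.2 and of WT DMSO at -47.7, against -4.81 to 28.1. The share of Xist in the sum of Xist and Ddx3y counts, which differs between the sexes, also varied within and between groups. It was 100, 0 and 3.51% in knockout-labelled bortezomib and 46.4, 31.8 and 90.3% in WT bortezomib. In knockout-labelled DMSO it was at most 0.987%, below the 99.2, 98.6 and 60.0% of WT DMSO.

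The genes lie on 8 chromosomes (GRCm38). Of the subunits on the side that binds ATP tightly in yeast, Tcp1, the first subunit described (ENSMUSG00000068039.12), is at chr17:12915701-12925067 on the plus strand, and Cct2 (ENSMUSG00000034024.7) at chr10:117051001-117063814 on the minus strand. Cct4 (ENSMUSG00000007739.10) is at chr11:22990519-23003780 on the plus strand and Cct5 (ENSMUSG00000022234.14) at chr15:31590800-31601804 on the minus strand. On the other side, Cct3 (ENSMUSG00000001416.13) is at chr3:88297116-88321767 and Cct6a (ENSMUSG00000029447.11), the broadly used copy of a gene pair, at chr5:129786998-129846371, both on the plus strand. Cct7 (ENSMUSG00000030007.8) is at chr6:85451514-85468475 on the plus strand and Cct8 (ENSMUSG00000025613.13) at chr16:87483326-87495873 on the minus strand. Reads of processed pseudogenes were few: Cct3-ps1 had at most 10 counts in a library and Tcp1-ps1 at most 8. The testis copy Cct6b averaged 0.808 ± 0.886 CPM in knockout-labelled bortezomib and 0.789 ± 0.407 CPM in WT bortezomib (SD, n = 3 each).

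The promoters are shown because the 8 genes moved together, as described below. RefSeq windows on GRCm38.p6, from 250 bases before to 50 bases after an annotated start, were at hand for 7 of the 8 genes, and Cct4 was not searched. Capitals mark CCAAT boxes (CCAAT, or ATTGG where it lies on the other strand), the sequence bound by NF-Y, and heat shock element cores (GAANNTTC or TTCNNGAA), the sequence bound by HSF1. The windows of Cct6a (chr5:129787106-129787405, plus strand), which had the largest fitted rise described below, of Cct7 (chr6:85451255-85451554, plus strand), with the most CCAAT boxes, of Cct2 (chr10:117063326-117063625, minus strand, the inner of its pair of windows), with the smallest rise, and of Cct8 (chr16:87495820-87496119, minus strand), with neither motif, read as follows, 5′ to 3′.
Cct6a: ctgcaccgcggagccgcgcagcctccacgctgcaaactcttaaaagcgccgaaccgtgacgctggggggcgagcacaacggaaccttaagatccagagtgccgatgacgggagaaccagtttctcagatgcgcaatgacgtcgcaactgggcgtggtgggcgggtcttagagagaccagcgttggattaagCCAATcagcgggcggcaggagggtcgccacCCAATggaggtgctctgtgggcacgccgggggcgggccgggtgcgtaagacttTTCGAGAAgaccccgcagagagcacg
Cct7: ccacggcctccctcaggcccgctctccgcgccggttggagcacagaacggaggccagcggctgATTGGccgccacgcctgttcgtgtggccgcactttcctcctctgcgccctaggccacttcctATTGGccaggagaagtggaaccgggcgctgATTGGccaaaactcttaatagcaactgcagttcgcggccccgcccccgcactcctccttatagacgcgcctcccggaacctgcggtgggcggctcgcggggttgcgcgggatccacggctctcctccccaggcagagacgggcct
Cct2: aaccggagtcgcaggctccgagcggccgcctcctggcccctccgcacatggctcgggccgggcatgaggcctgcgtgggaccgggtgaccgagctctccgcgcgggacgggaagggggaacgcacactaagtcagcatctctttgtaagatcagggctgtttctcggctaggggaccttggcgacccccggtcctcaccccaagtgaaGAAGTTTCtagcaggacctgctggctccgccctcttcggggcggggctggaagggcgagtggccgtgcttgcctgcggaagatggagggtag
Cct8: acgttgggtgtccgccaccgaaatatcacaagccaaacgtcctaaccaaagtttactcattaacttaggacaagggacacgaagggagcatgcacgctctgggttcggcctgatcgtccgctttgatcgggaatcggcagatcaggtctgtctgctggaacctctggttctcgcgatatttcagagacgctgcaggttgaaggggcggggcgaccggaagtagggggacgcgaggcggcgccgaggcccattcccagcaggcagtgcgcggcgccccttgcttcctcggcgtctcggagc
CCAAT, on either strand, was in 4 of the 7 genes: once in Tcp1 at -132, 2 times in Cct3 at -74 and -33, 2 times in Cct6a at -59 and -29, and 3 times in Cct7 at -187, -125 and -95 bases from the start. By window it was in 4 of the 9 windows of these genes and in 37.4% of all 32851 windows of the table. GC boxes (GGGCGG, either strand), the sequence of Sp1 and KLF factors, were in 8 of the 9 windows and in 35.7% of all windows. GAANNTTC was in the inner Cct2 window at -42 alone (7.86% of all windows), and TTCNNGAA in Cct5 at -34 and in Cct6a at 25 (8.52% of all windows). The E-box CACGTG was in none of the 9 (7.15% of all windows). These matches are descriptions of letters, and binding was not measured.

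Bortezomib against DMSO asks what proteasome inhibition does to the transcripts of HSCs. In WT HSCs all 8 subunit genes were higher with bortezomib, by 1.43-fold for Cct2 to 2.17-fold for Cct6a, and in every one of them the 3 bortezomib libraries lay above the 3 DMSO libraries. All 8 were called higher, against 7.97% of the 16149 genes tested. Libraries that did not overlap, with bortezomib higher, were seen in 18.3% of genes tested. The summed level of the 8 genes was 7543, 7187 and 7112 CPM in WT bortezomib libraries 1 to 3 and 4053, 3713 and 4446 CPM in WT DMSO libraries 1 to 3. The median fitted log2 fold change was 0.79, beside -0.04 over all genes tested.

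**Figure D1:**
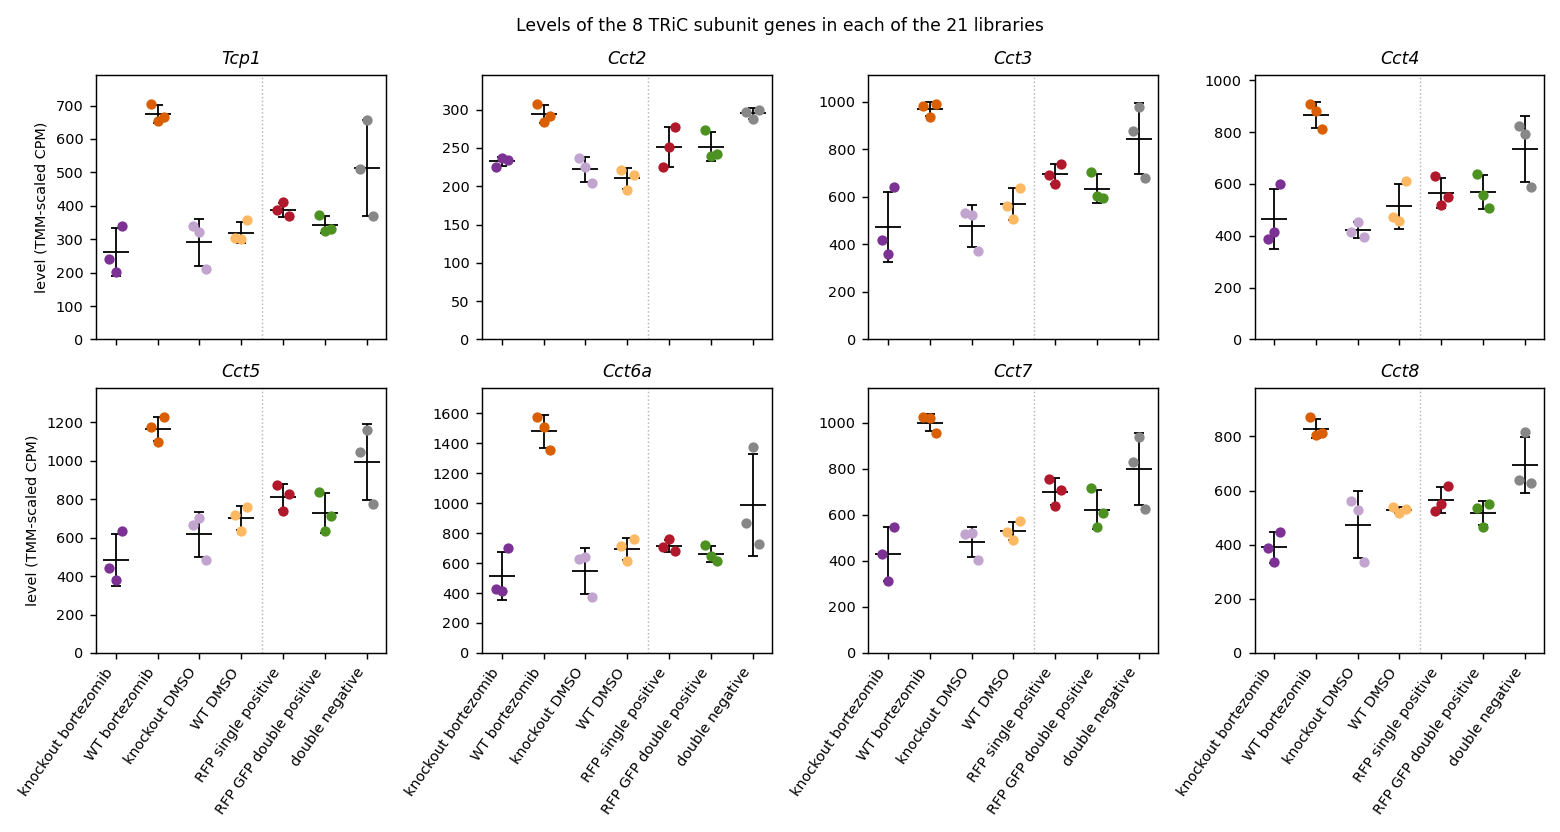
Level of each TRiC subunit gene (TMM-scaled CPM, vertical axis from 0) in every library, by group on the horizontal axis, with the treatment experiment left of the dotted line and the reporter experiment right of it. Points are libraries, in the order of their numbers, and bars give the mean ± SD of 3; in every panel the 3 WT bortezomib points lie above those of the other treatment groups.

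Among the subunits that bind ATP tightly in yeast, Tcp1 stood at 705, 653 and 666 CPM in WT bortezomib libraries, against 304, 299 and 357 CPM in WT DMSO libraries. The groups did not overlap, and Tcp1 rose with a log2 fold change of 1.10 (SE 0.21, edgeR adjusted p = 0.00474). Cct4 had 909, 879.7 and 811 CPM in WT bortezomib, against 471, 456 and 612 CPM in WT DMSO, with DMSO replicate 3 nearest to the treated libraries. It rose by 0.78 on the log2 scale (SE 0.18, edgeR adjusted p = 0.0111). Cct2 was at 307, 284 and 292 CPM in WT bortezomib and 221, 195 and 215 CPM in WT DMSO. The groups did not overlap, and its rise was the smallest of the 8 (log2 fold change 0.51, SE 0.14, edgeR adjusted p = 0.0204). Cct5 measured 1174, 1099 and 1225 CPM in WT bortezomib libraries and 715, 634 and 759 CPM in WT DMSO libraries. All 3 treated libraries lay above the highest DMSO one, and Cct5 rose by 0.76 (SE 0.19, edgeR adjusted p = 0.0177).

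On the other side of the ring, Cct7 gave 1023, 1022 and 957 CPM in WT bortezomib and 527, 491 and 571 CPM in WT DMSO. The treated libraries were tightly grouped, and the log2 fold change was 0.94 (SE 0.18, edgeR adjusted p = 0.00565). Cct8 was at 870.3, 805 and 812 CPM in WT bortezomib, against 539.6, 517 and 532 CPM in WT DMSO, with little spread in either group. Its rise was 0.67 (SE 0.18, edgeR adjusted p = 0.023). Cct6a changed most, with 1572, 1509 and 1358 CPM in WT bortezomib and 712, 613 and 760.4 CPM in WT DMSO. Even bortezomib replicate 3, its lowest treated library, stood far above DMSO replicate 3, and the log2 fold change was 1.12 (SE 0.23, edgeR adjusted p = 0.00658). Cct3 had 982, 936 and 991 CPM in WT bortezomib and 563, 508 and 639 CPM in WT DMSO. It rose by 0.79 without overlap of the groups (SE 0.20, edgeR adjusted p = 0.0174).

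The calls on Tcp1, Cct6a and Cct7 held when any one of the 12 libraries was left out. The other 5 were lost without WT DMSO 1, WT DMSO 2 or WT bortezomib 1, each of which left 3 of the 8 called where 5.8%, 4.32% and 3.47% of all genes were called, and Cct2 and Cct8 were lost without WT bortezomib 2, which left 6. Without the filter on low counts Cct2 had an edgeR adjusted p of 0.0703.

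Other measures moved in the same libraries, in a comparison where 7.97% of all genes were called higher and 15.5% in either direction. Of the 26 cell cycle genes listed, 16 were called higher in WT bortezomib and none lower, and their summed level was 5049.7 to 6955 CPM in WT bortezomib, against 3489 to 4069 CPM in WT DMSO. HSC markers fell for 7 of 8 genes, with summed levels of 1612 to 1998 CPM in WT bortezomib and 2861 to 3132 CPM in WT DMSO; Kit, the stem cell factor receptor, fell by 1.13 (SE 0.19, edgeR adjusted p = 0.00367) and Tek, the receptor of angiopoietins, by 1.39 (SE 0.19, edgeR adjusted p = 0.00193). Of the 3 progenitor markers Cd48 rose by 1.83 (SE 0.38, edgeR adjusted p = 0.00723) and was the only one called or with a positive log2 fold change. The median of the 3 was -0.01 and the lowest -0.48. Their sums were 622 to 793 CPM in WT bortezomib and 659 to 734 CPM in WT DMSO. Summed erythroid markers were 162 to 199.6 CPM in WT bortezomib and 61.2 to 84.8 CPM in WT DMSO. Hbb-bt, a beta globin gene, carried that sum at 146.7 to 186 CPM in WT bortezomib and 48.1 to 70.2 CPM in WT DMSO, and was the 1 of 7 called higher, while Hba-a1, an alpha globin gene, was called lower. Macrophage markers summed to 79.3 to 135 CPM in WT bortezomib and 48.1 to 68.3 CPM in WT DMSO, with 1 of 5 higher. T and NK cell markers summed to 141 to 206 CPM in WT bortezomib and 81.1 to 89.4 CPM in WT DMSO, carried by Nkg7 at 132 to 193 CPM in WT bortezomib and 71.3 to 76.0 CPM in WT DMSO. Only 2 of those 5 markers were tested, Nkg7, called higher, and Klrb1c, at -0.16 (SE 0.42, edgeR adjusted p = 0.838), and Cd3e and Cd3g were at 0. The part of these in the TRiC levels was not tested, and in bulk samples fewer cells of a type and less RNA per cell cannot be told apart.

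In knockout-labelled HSCs none of the 8 genes was called between bortezomib and DMSO by edgeR, where 3.63% of all genes tested were called. None reached an unadjusted p under 0.05 either, and DESeq2 also called 0 of 8. The summed level was 2959, 2653 and 4144 CPM in knockout-labelled bortezomib libraries 1 to 3 and 3897, 3919.6 and 2779.7 CPM in knockout-labelled DMSO libraries 1 to 3. The groups overlapped for all 8 genes, and DMSO replicate 3 was the lowest of its group in all 8 members while bortezomib replicate 3 was the highest of its group in 7, all but Cct2. Log2 fold changes ran from -0.34 (SE 0.19) for Cct5 to 0.15 (SE 0.18) for Cct4, with a median of -0.11 beside 0.00 over all genes tested.

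Of the tightly binding side, Tcp1 was at 242, 202 and 341 CPM in knockout-labelled bortezomib, against 339, 323 and 211 CPM in knockout-labelled DMSO. Cct4 had 387, 413 and 599.5 CPM in knockout-labelled bortezomib and 415, 455 and 396 CPM in knockout-labelled DMSO. Both genes had their highest value in bortezomib replicate 3. Cct2 showed the narrowest range, with 226, 237 and 234 CPM in knockout-labelled bortezomib and 237, 226 and 204 CPM in knockout-labelled DMSO. Cct5 had 439.7, 378 and 636 CPM in knockout-labelled bortezomib and 666, 704 and 484 CPM in knockout-labelled DMSO, so that 2 treated libraries were below all 3 controls and 1 was not. With limma voom and quality weights Cct5 was called lower (log2 fold change -0.54, adjusted p = 0.0262), and likewise without the 3 libraries that stood apart (-0.57, edgeR adjusted p = 0.0352). Under these settings 9.77% and 11.6% of all genes were called, so 1 of 8 members is close to the share over all genes.

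Of the weakly binding side, Cct7 had 429.6, 314 and 546 CPM in knockout-labelled bortezomib and 519, 521 and 405 CPM in knockout-labelled DMSO. Cct8 was at 389, 335 and 446 CPM in knockout-labelled bortezomib and 561, 528 and 334 CPM in knockout-labelled DMSO. The Cct8 libraries with bortezomib all lay within the DMSO range, and those of Cct7 spread past it at both ends. Cct6a gave 427, 413 and 700.0 CPM in knockout-labelled bortezomib and 628, 640.2 and 371 CPM in knockout-labelled DMSO. Cct3 gave 419, 361 and 641 CPM in knockout-labelled bortezomib and 533, 524 and 374 CPM in knockout-labelled DMSO. In both, bortezomib replicate 3 was the highest of the 6 libraries. The cell cycle list had 4 of 26 genes called lower, against 1.61% of all genes, and none higher in this comparison, at 1899 to 3025 CPM in knockout-labelled bortezomib and 2721 to 4783 CPM in knockout-labelled DMSO. Of 8 HSC, 7 erythroid and 5 megakaryocyte markers 1 each was called lower, and 1 of 5 macrophage markers higher, against 2.02% of all genes. Erythroid sums were 39.7 to 63.7 CPM with bortezomib and 75.2 to 197 CPM with DMSO, although 4 of 7 log2 fold changes were positive. The part of these in the TRiC levels was not tested.

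**Figure D2:**
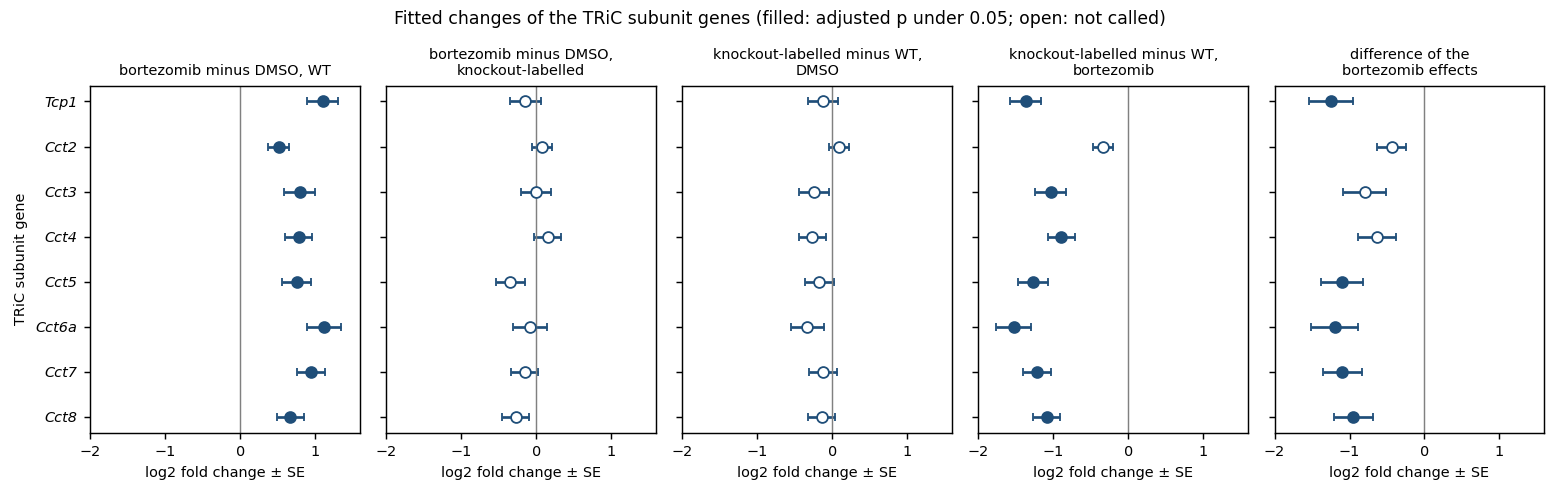
Fitted log2 fold change ± SE (horizontal axis) of each TRiC subunit gene (vertical axis) in the 5 comparisons of the treatment experiment, 1 panel each; filled points are called at an adjusted p under 0.05. All 8 points are filled in WT bortezomib against DMSO, none in the same comparison in knockout-labelled HSCs, and Cct2 lies nearest to 0 where genotypes are compared in bortezomib.

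Knockout-labelled against WT asks how HSCs labelled as lacking Atg5 differ from WT HSCs, with and without bortezomib. Under bortezomib the subunit genes were lower in knockout-labelled HSCs, and 7 of 8 were called lower, against 15.3% of all genes tested. In all 8 the 3 knockout-labelled libraries lay below the 3 WT libraries, which was so for 21.7% of genes tested. The summed level was 2959, 2653 and 4144 CPM in knockout-labelled bortezomib libraries and 7543, 7187 and 7112 CPM in WT bortezomib libraries. The median log2 fold change was -1.16, beside 0.08 over all genes tested. These WT bortezomib libraries are those of the WT comparison above, so the values are not independent of it.

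Cct6a differed most in this comparison, averaging 513 ± 162 CPM in knockout-labelled bortezomib and 1479.6 ± 110.3 CPM in WT bortezomib (SD, n = 3 each). It fell by 1.53 on the log2 scale (SE 0.23, edgeR adjusted p = 0.000285). Tcp1 averaged 261 ± 71.7 CPM in knockout-labelled bortezomib and 675 ± 27.0 CPM in WT bortezomib, and fell by 1.37 (SE 0.21, edgeR adjusted p = 0.000297). Neither gene had a knockout-labelled library near the WT range. Cct5 fell by 1.27 (SE 0.20, edgeR adjusted p = 0.000333), Cct7 by 1.22 (SE 0.19, 0.000304) and Cct8 by 1.09 (SE 0.18, 0.000554). Cct3 fell by 1.04 (SE 0.20, edgeR adjusted p = 0.00141) and Cct4 by 0.90 (SE 0.18, 0.00162), with knockout-labelled replicate 3 the highest of its group in each. Cct2 differed least, at 232 ± 6.03 CPM in knockout-labelled bortezomib and 294 ± 11.8 CPM in WT bortezomib (SD, n = 3 each). Its log2 fold change was -0.34 (SE 0.14, edgeR adjusted p = 0.0638), past the threshold with relative log expression size factors (adjusted p = 0.0482), DESeq2 (0.00868) and limma voom (0.0118). The calls on the other 7 held without any one library.

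Beside these, 19 of 26 cell cycle genes were called lower and none higher, with summed levels of 1899 to 3025 CPM in knockout-labelled bortezomib and 5049.7 to 6955 CPM in WT bortezomib. Over all genes tested, 15.3% were called lower and 17.2% higher in this comparison. HSC markers had 5 of 8 called higher and none lower. Erythroid markers summed to 39.7 to 63.7 CPM in knockout-labelled bortezomib and 162 to 199.6 CPM in WT bortezomib, but the members did not move together. Hbb-bt was called lower, Hba-a1 was called higher, and 6 of 7 had positive log2 fold changes, with a median of 2.11. The 3 progenitor markers split. Cd48 fell by 2.16 (SE 0.38, edgeR adjusted p = 0.000725), while 1 other was called higher, at 1.30. Their sums were 514 to 733 CPM in knockout-labelled bortezomib and 622 to 793 CPM in WT bortezomib. Macrophage markers had 3 of 5 called lower, at 65.3 to 80.0 CPM in knockout-labelled bortezomib and 79.3 to 135 CPM in WT bortezomib. All 5 megakaryocyte markers were called, 3 lower (Ppbp, Pf4 and Gp9) and 2 higher (Itga2b and Gp1bb), with sums of 182 to 435 CPM in knockout-labelled bortezomib and 198 to 339 CPM in WT bortezomib. T and NK cell markers summed to 42.1 to 119 CPM in knockout-labelled bortezomib and 141 to 206 CPM in WT bortezomib, with Nkg7 called lower of 2 tested. Whether these bear on the TRiC levels was not tested.

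**Figure D3:**
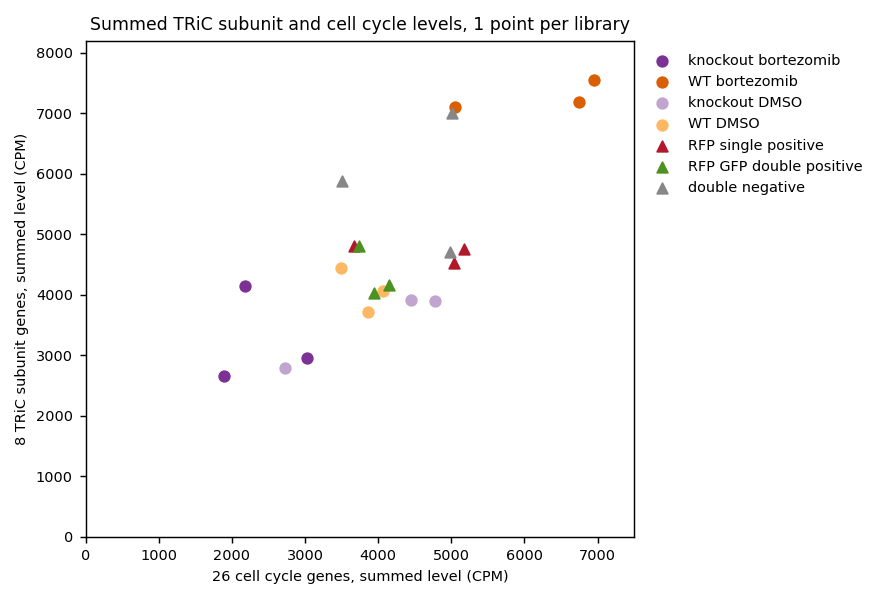
Summed level of the 8 TRiC subunit genes (CPM, vertical axis) against that of the 26 listed cell cycle genes (CPM, horizontal axis), 1 point per library, with circles for the treatment and triangles for the reporter experiment. WT bortezomib libraries lay at 7112 to 7543 CPM of TRiC subunits, above all others, and at 5049.7 to 6955 CPM of cell cycle genes, where an RFP single positive library reached 5176 CPM; a double negative library at 7002 CPM had 5003 CPM of cell cycle genes.

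With DMSO alone edgeR called 0 of 8 members and 0% of all genes, while 1454 genes had an unadjusted p under 0.05 and none of the members was among them. DESeq2 called 0 of 8 as well. The Xist share was at most 0.987% in knockout-labelled DMSO libraries and at least 60.0% in WT DMSO libraries. Genotype and sex could thus not be told apart in this comparison. Means were 3532 ± 652 CPM in knockout-labelled DMSO and 4070.4 ± 367 CPM in WT DMSO for the summed level (SD, n = 3 each), and log2 fold changes ran from -0.33 for Cct6a (SE 0.22) to 0.09 for Cct2 (SE 0.14). Cct4 was the single member without overlap, at 415, 455 and 396 CPM in knockout-labelled DMSO and 471, 456 and 612 CPM in WT DMSO, where 9.15% of genes tested did not overlap in that direction. Its nearest libraries differed by little, and its adjusted p was 0.686.

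The difference between the bortezomib effects (knockout-labelled minus WT) was negative for all 8 genes. It uses the DMSO groups, in which genotype and sex could not be told apart. It passed the threshold for 5, against 4.71% of all genes called lower: Tcp1 (log2 difference -1.25, SE 0.29, edgeR adjusted p = 0.0179), Cct7 (-1.10, SE 0.26, 0.0197), Cct5 (-1.10, SE 0.27, 0.0244), Cct6a (-1.20, SE 0.32, 0.0313) and Cct8 (-0.95, SE 0.26, 0.0348). Cct3 (-0.80, SE 0.29, edgeR adjusted p = 0.09), Cct4 (-0.63, SE 0.25, 0.127) and Cct2 (-0.44, SE 0.19, 0.163) did not pass it. These calls depended on single libraries. None of the 8 was called without WT DMSO 2, WT bortezomib 1, knockout-labelled DMSO 1 or knockout-labelled DMSO 2. In those fits 2.46%, 2.34%, 3.62% and 2.07% of all genes were called in either direction. Without WT DMSO 1, WT bortezomib 2 or knockout-labelled bortezomib 1 or 2, the count was 2 or 3. There 4.37%, 4.01%, 4.52% and 3.69% of all genes were called, so calls over all genes fell as well. With the Xist share as a covariate none was called, and 1.71% of all genes were, while the median log2 difference was -0.95, beside -1.02 without it. Leaving out each library in turn gave medians of -1.21 to -0.89. Without knockout-labelled bortezomib 3, or without the 3 libraries that stood apart, 7 were called, where 16.7% and 24.5% of all genes were called. Limma voom called all 8, and 30.1% of all genes, against 9.05% called in either direction by the edgeR test on all libraries.

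The proportions of the subunits varied between libraries. Per kilobase of transcript, Cct5 had the highest mean level over the 21 libraries (425 CPM per kilobase), then Cct3 (337), Cct6a (326), Cct7 (267), Cct8 (239), Cct4 (238), Tcp1 (163) and Cct2 (128). Cct8 and Cct4 differed little. Their SDs of 63.0 and 66.1 CPM per kilobase over these libraries include differences between groups, and no places in this order were tested. Dividing by the whole exonic length of each gene instead gave the order Cct5, Cct6a, Cct8, Cct4, Cct3, Cct2, Cct7, Tcp1, so that only the place of Cct5 was shared. The order per kilobase of transcript also differed between groups. The share of Cct6a was 18.5% and that of Cct3 15.1% in WT bortezomib, and in knockout-labelled bortezomib Cct2 (8.41%) stood above Tcp1 (7.27%). By exonic length Cct2 stood above Tcp1 in every group but WT bortezomib, where the shares were 6.21% and 7.23%. The share of Cct2 in the summed level per kilobase of transcript was 8.65, 10.1 and 6.42% in knockout-labelled bortezomib libraries 1 to 3 and 4.66, 4.53 and 4.66% in WT bortezomib, with 6.87, 6.51 and 8.26% in knockout-labelled DMSO and 6.16, 5.94 and 5.49% in WT DMSO. The lowest 3 shares of Cct2 in the treatment experiment were thus the WT bortezomib libraries. Mean shares of Cct6a ran the other way under bortezomib, with values of 14.2% in knockout-labelled bortezomib and 18.5% in WT bortezomib, and 13.8% in knockout-labelled DMSO and 15.4% in WT DMSO. No test was run on the shares.

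**Figure D4:**
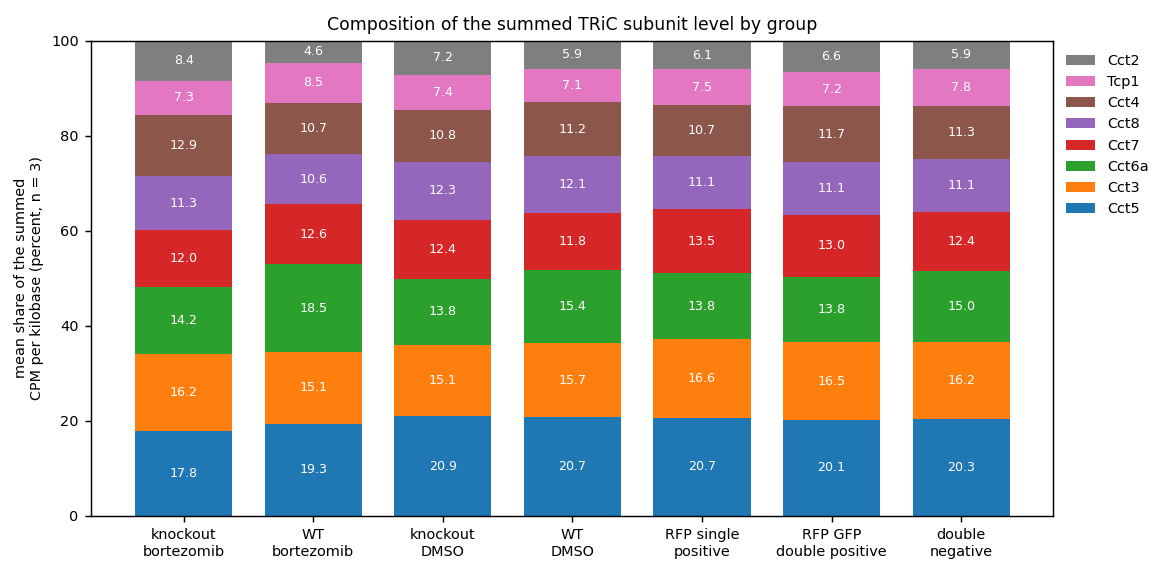
Mean share of each TRiC subunit gene in the summed level per kilobase of transcript (percent, vertical axis, n = 3 libraries), by group on the horizontal axis; each stack adds to the whole. The Cct2 segment was 8.41% in knockout-labelled bortezomib and 4.62% in WT bortezomib, and the Cct6a segment was 14.2% in knockout-labelled bortezomib and 18.5% in WT bortezomib.

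Across the 12 treatment libraries the log2 levels of the 8 genes followed each other, with Pearson r between 0.716 and 0.989 over the 28 pairs and a median of 0.955. Across the 9 reporter libraries r was 0.436 to 0.988 with a median of 0.846. These are descriptions, since the libraries share group differences and scaling. The genes most like the mean of the 8 in the treatment experiment, of 7948 with at least 20 CPM, were Nhp2, a protein of H/ACA ribonucleoproteins (r = 0.997), Srsf7, a splicing factor (0.994), and Cycs, cytochrome c (0.990). Slc25a5, an ADP/ATP carrier (0.990), Eif2s1, a subunit of initiation factor eIF2 (0.989), and Stoml2, a protein of the mitochondrial membrane (0.989), followed. In the reporter experiment, of 7682 genes, those described are Rars, the arginyl-tRNA synthetase (r = 0.984), Galk1, galactokinase (0.982), Fam195a (0.982), Psat1, an enzyme of serine synthesis (0.976), and Psmd13, a proteasome subunit (0.969), and none of these was among the genes named for the treatment experiment.

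Of the 8 genes, 6 have an opposite-strand start within 1000 bases. Tcp1 overlaps Mrpl18, a mitochondrial ribosomal protein gene, by 645 bases; Cct6a overlaps Psph, phosphoserine phosphatase, by 452; and Cct7 overlaps Pradc1 by 457. Cct3 and Tsacc start 117 bases apart, Cct5 and Fam173b 48, and Cct8 and the non-coding B130034C11Rik 126. Tcp1 also overlaps Acat3 by 1255 bases on the opposite strand, and Cct8 overlaps Usp16 by 192. Acat3 had at most 1.35 CPM in any library, and Usp16 was called in none of the comparisons. SMART-seq2 does not mark the strand, so reads from the overlaps cannot be assigned to either gene by strand. Under bortezomib 5 of the 6 neighbours, all but B130034C11Rik, were called lower in knockout-labelled against WT HSCs, against 15.3% of all genes. Mrpl18 averaged 81.4 ± 37.9 CPM in knockout-labelled bortezomib and 271 ± 11.6 CPM in WT bortezomib, and fell by 1.74 (SE 0.26, edgeR adjusted p = 0.000262). Psph fell by 1.42 (SE 0.24, edgeR adjusted p = 0.000579), Pradc1 by 1.22 (SE 0.25, 0.00192), Tsacc by 0.86 (SE 0.29, 0.0318) and Fam173b by 0.81 (SE 0.27, 0.0284). In WT HSCs, bortezomib against DMSO called Mrpl18 higher (1.24 on the log2 scale, SE 0.25, edgeR adjusted p = 0.00687) and none of the other 5. The levels of Tsacc and Fam173b were low, at most 16.8 and 26.6 CPM in a treatment library.

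**Figure D5:**
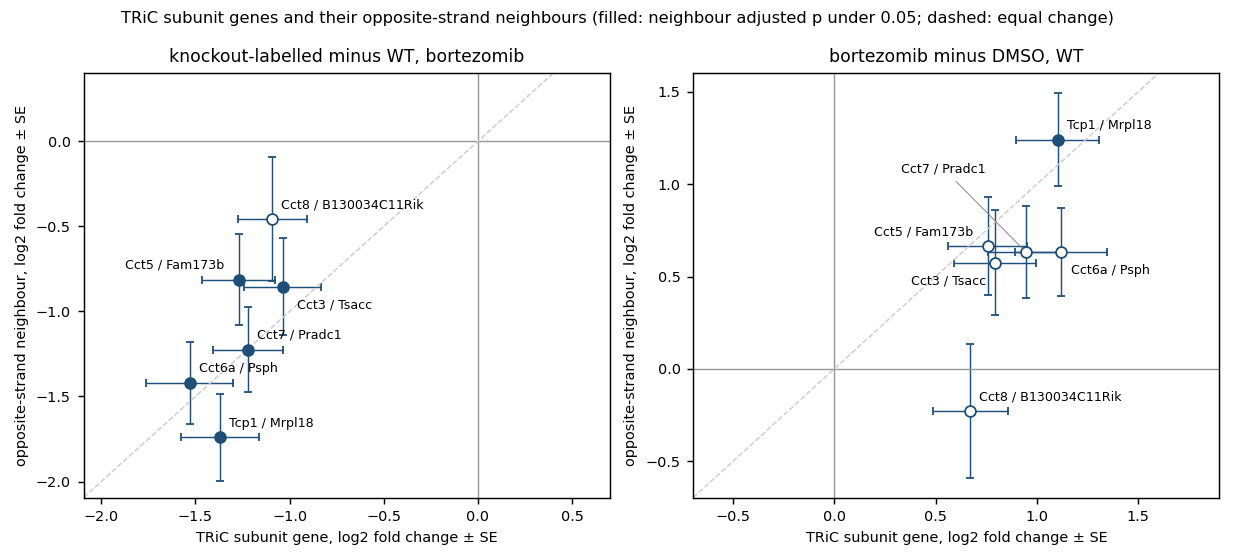
Log2 fold change ± SE of 6 opposite-strand neighbours (vertical axis) against that of the TRiC subunit gene beside them (horizontal axis), for genotype in bortezomib (left) and bortezomib in WT (right); filled points mark neighbours with an adjusted p under 0.05. In the left panel all pairs lie below 0 on both axes, and in the right panel Tcp1 and Mrpl18 lie highest, at 1.10 and 1.24.

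Partners and clients of TRiC were read as lists, by counts and medians. Over all genes tested, 7.97% were called higher in WT bortezomib against DMSO. Between genotypes under bortezomib 15.3% were called lower and 17.2% higher. Among prefoldin subunits, which deliver actin and tubulin to TRiC, 3 of 6 were called higher in WT bortezomib against DMSO, with a median log2 fold change of 0.59. Pfdn4 averaged 111 ± 9.19 CPM in WT bortezomib and 50.1 ± 15.1 CPM in WT DMSO (1.18 on the log2 scale, SE 0.25, edgeR adjusted p = 0.00843), and Pfdn6 and Pfdn1 rose by 0.83 and 0.71. Vbp1, the most abundant, had a log2 fold change of 0.46 (adjusted p = 0.124). In knockout-labelled HSCs bortezomib called 0 of 6, and between genotypes under bortezomib 5 of 6 were lower, with a median of -0.99 and Pfdn4 at -1.38 (SE 0.25, edgeR adjusted p = 0.000932). Of 3 phosducin-like cofactors Txndc9 rose in WT (0.64, SE 0.18, edgeR adjusted p = 0.0267), and none was called in the other treatment comparisons.

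Tubulins, clients of TRiC, split by gene. In WT bortezomib against DMSO 6 of 13 tested were called higher and 1 lower, led by Tubb4b (1.19 on the log2 scale, SE 0.18, edgeR adjusted p = 0.0024) and Tuba1c (1.04, SE 0.19, 0.00412). In knockout-labelled HSCs, where no TRiC gene was called, 4 of 13 tubulins rose with bortezomib, against 2.02% of all genes: Tubb2a (2.22, SE 0.36, edgeR adjusted p = 0.00278), Tubb1 (1.99, SE 0.53, 0.0469), Tuba1a (1.79, SE 0.25, 0.000948) and Tuba1c (0.88, SE 0.19, 0.0155). Between genotypes under bortezomib 7 were lower and 2 higher, against 15.3% and 17.2% of all genes, so the 2 of 13 higher are close to that share. Tuba1b was at -1.91 (SE 0.23, edgeR adjusted p = 0.000132) and Tubb2a at 1.45 (SE 0.34, 0.00481). Of the 4 actin and actin-related genes 3 rose in WT bortezomib: Actr3 (0.85, SE 0.16, edgeR adjusted p = 0.00481), Actg1 (0.57, SE 0.16, 0.0271) and Actr2 (0.57, SE 0.15, 0.0206). Actb, the most abundant, was at 0.07 (SE 0.21, edgeR adjusted p = 0.865). Among tubulin folding cofactors, which act after TRiC, Tbcb (1.09) and Tbca (0.83) rose in WT of 5 tested, and both were lower between genotypes under bortezomib (-0.88 and -1.07).

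Of the WD40 and other clients 2 of 13, Gnb1 (0.45, SE 0.13, edgeR adjusted p = 0.0356) and Hdac3 (0.48, SE 0.15, 0.0409), rose in WT bortezomib. Between genotypes under bortezomib both were lower, while Stat3 (1.22, SE 0.21, edgeR adjusted p = 0.000546) and Rptor (0.70, SE 0.25, 0.0398) were higher. These counts, 2 of 13 in each direction, are close to the 15.3% of all genes called lower and 17.2% called higher. Mitochondrial chaperonin is a separate machine: its co-chaperonin Hspe1 rose in WT bortezomib (1.49, SE 0.32, edgeR adjusted p = 0.00872) and Hspd1 was at 0.46 (adjusted p = 0.176). Mkks, a chaperonin-like protein of the BBSome assembly complex, rose by 0.78 (SE 0.20, edgeR adjusted p = 0.017). Of 21 cytosolic HSP70 and HSP90 genes 5 were called higher in WT bortezomib, against 7.97% of all genes. Among them were Ptges3 (1.01), Hspa14 (0.83), Hspa8 (0.77) and Hspa4 (0.70). Between genotypes under bortezomib 8 were lower, against 15.3% of all genes. In knockout-labelled HSCs 1 of the 21 was called with bortezomib, Cdc37, a kinase co-chaperone, which fell by 0.61 (SE 0.16, edgeR adjusted p = 0.0435), close to the 3.63% of all genes called. The transcripts of Hsf1, Hsf2 and Myc, 3 factors linked to chaperone genes, were not called in any treatment comparison. In the difference between the bortezomib effects 4.71% of all genes were called lower and 9.05% in either direction. There 14 of 26 cell cycle genes were called lower, as were Hspe1 (-2.14, SE 0.45, edgeR adjusted p = 0.0132) and none of the 6 prefoldin subunits. Of 21 HSP70 and HSP90 genes 2 were called lower, among them Ptges3 (-0.93, SE 0.24, edgeR adjusted p = 0.0265). Of 13 WD40 and other clients, 3 progenitor, 7 erythroid and 2 tested T and NK cell markers 1 each was called lower. Tubulins had 2 called lower, Tuba1b and Tubb5, and 2 called higher, Tubb1 and Tuba1a, and of the 8 HSC markers Tek was called higher. None of these lists had a called gene between genotypes in DMSO, where edgeR called 0% of all genes. The same held in the reporter experiment, where it called at most 0.0065% of all genes in a comparison. With so few genes called, these empty counts say nothing about the lists.

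In the reporter experiment the comparisons ask whether HSCs that differ in autophagy reporter signal differ in transcripts. Acid in the lysosome dims EGFP more than RFP, which is how the reporter marks autophagic flux. None of the 8 genes was called in any of the 3 comparisons by edgeR or DESeq2, where 0%, 0% and 0.0065% of all 15375 genes were called in single positive against double positive, single positive against double negative and double positive against double negative. The genes with an unadjusted p under 0.05 numbered 209, 1160 and 1315, with 0, 0 and 5 members among them. The summed level was 4799, 4518 and 4763 CPM in RFP single positive libraries 1 to 3, 4798, 4019.8 and 4161 CPM in RFP GFP double positive, and 5887, 7002 and 4699.5 CPM in double negative. Double negative replicate 2 was the highest and its replicate 3 lay within the other groups.

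Median log2 fold changes were 0.13 in RFP single positive against RFP GFP double positive, -0.28 in RFP single positive against double negative and -0.40 in RFP GFP double positive against double negative, beside -0.00, 0.02 and 0.02 over all genes tested. Without double negative replicate 2 the medians against that group were -0.15 for single positive and -0.28 for double positive. Cct2 was lower without overlap in both sorted RFP groups than in double negative HSCs, at 225, 251 and 278 CPM in RFP single positive, 273, 239.8 and 242 CPM in RFP GFP double positive and 297, 287 and 299.9 CPM in double negative. The gap was small, with log2 fold changes of -0.22 (SE 0.16) for single positive and -0.21 (SE 0.16) for double positive. In Cct8 the double negative libraries were likewise above all others, at 525, 551 and 618 CPM in RFP single positive, 534, 467 and 549 CPM in RFP GFP double positive and 641, 815 and 629 CPM in double negative. Cct6a had 709.8, 757 and 678 CPM in RFP single positive, 721, 647 and 612 CPM in RFP GFP double positive and 865, 1373 and 728 CPM in double negative, with replicate 2 of the double negative group the highest. It gave the largest fitted value, -0.57 (SE 0.21, edgeR adjusted p = 0.555) in RFP GFP double positive against double negative. Members without overlap in the lower direction were 2 of 8 against 5.83% of genes for single positive, and 3 of 8 against 5.31% for double positive.

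The other 5 also averaged highest in double negative HSCs, with overlap between groups. Tcp1 was 386, 411 and 368 CPM in RFP single positive, 372, 325 and 332 CPM in RFP GFP double positive, and 509.9, 657 and 371 CPM in double negative. Cct4 was 630.4, 517 and 549 CPM in RFP single positive, 640.0, 557 and 509 CPM in RFP GFP double positive, and 822, 793 and 587 CPM in double negative. In both genes the double negative replicate 3 lay among the sorted RFP libraries. Cct5 averaged 812 ± 69.3, 728 ± 103 and 994 ± 197 CPM, Cct7 701 ± 58.2, 623 ± 85.6 and 798 ± 157 CPM, and Cct3 695 ± 43.2, 635 ± 60.9 and 846 ± 151 CPM in RFP single positive, RFP GFP double positive and double negative (SD, n = 3 each). Kit was 637 to 849, 629.7 to 1106 and 224 to 918 CPM in those groups, and Cd48 1.90 to 16.4, 8.29 to 13.0 and 18.2 to 56.2 CPM, with its highest value in double negative replicate 2. T and NK cell markers summed to 75.7 to 131, 76.7 to 97.5 and 144 to 208 CPM in those groups, and progenitor markers to 421 to 570.1, 356 to 549 and 528 to 799.6 CPM. Some reporter libraries stood apart from the rest: double negative 1 had a score of 99.4 on principal component 1, double positive 2 of -81.4 on component 2 and double positive 1 of 75.3 on component 3. No member was called in any reporter comparison without any one of the 9 libraries. The part of these in the TRiC levels was not tested.

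Set in order of the summed TRiC level, the 7 groups were WT bortezomib (7280.3 ± 230.1 CPM), double negative (5863 ± 1152), RFP single positive (4693 ± 153), RFP GFP double positive (4326 ± 415), WT DMSO (4070.4 ± 367), knockout-labelled DMSO (3532 ± 652) and knockout-labelled bortezomib (3252 ± 787; SD, n = 3 each). From the second place on, the libraries of each group overlapped those of the next. WT bortezomib was the highest group for 7 of the 8 members, and for Cct2 it stood at 294 CPM beside 295 CPM in double negative HSCs. Levels in different experiments were not tested against each other.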

How the data were processed

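Libraries were prepared from sorted HSCs with the RNeasy Plus Micro kit and SMART-seq2, per the labels' protocols. The authors deposited a table of whole-number counts per gene made with HTSeq 0.7.1; STAR 2.6.1 and Bowtie 1.0.0 are also named, per the submitters' processing notes, which list GRCm38.p4 and GRCh38 without their roles. The strand setting is not given in the sources used here.

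From these counts, edgeR 4.0.16 (R 4.3.3) was run with TMM factors, filterByExpr and 1 mean per group, apart for the 12 treatment and 9 reporter libraries, with quasi-likelihood tests and Benjamini-Hochberg adjustment at 0.05 over 16149 and 15375 genes. Alternatives used DESeq2 1.42.0, limma 3.58.1 and left-out libraries. The edgeR procedure was tested on simulated data for bortezomib in WT and for RFP single against double positive only. Those data held no differences of sex, pairing or single libraries, so they do not bear on the other comparisons. Coordinates are of GRCm38 and promoters of GRCm38.p6. All 8 members were named, and of each other list up to 4 called genes with the smallest p and the most abundant one. The genes most like the members were the 6 with the highest Pearson r in each experiment, of which 1 is not reported here. The members and lists were chosen with earlier results of these data known. In the reporter experiment, deviations of single positive libraries correlated by number with double positive (r 0.35, 0.11 and 0.21) and double negative ones (0.37, 0.16 and 0.15). Between double positive and double negative r was 0.29, -0.015 and 0.38. The Xist share was 99.9, 97.4 and 88.1% in single positive 2, double positive 2 and double negative 2, and at most 10.2% in the other reporter libraries. Of the 9 reporter libraries 8 correlated best with a library of their own number. The labels do not say that numbers pair libraries, and the reported tests and overlaps of libraries used no pairing.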

Additional observations from a re-analysis of the deposited data

Results flagged for a closer look

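The effect of bortezomib differed between the genotypes for 5 of the 8 subunit genes, as tested by the interaction term of the edgeR fit, where 4.71% of all genes were called lower. None was called with the Xist share as a covariate, or without WT DMSO 2, WT bortezomib 1, knockout-labelled DMSO 1 or knockout-labelled DMSO 2. In those fits 1.71%, 2.46%, 2.34%, 3.62% and 2.07% of all genes were called in either direction, against 9.05% in the reported fit. The log2 difference (knockout-labelled minus WT) was -1.25 for Tcp1, -1.10 for Cct5, -1.20 for Cct6a, -1.10 for Cct7 and -0.95 for Cct8. In all 8 members, not only these 5, the WT libraries with bortezomib lay above those with DMSO, which was so for 18.3% of genes tested. The knockout-labelled libraries overlapped in all 8.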

How the results depend on the processing

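The number of members called was within 1.5 times the reported one under every alternative run except these. In knockout-labelled HSCs with bortezomib against DMSO, limma voom called 1 and leaving out the 3 libraries numbered 3 called 1, in place of 0, where 9.77% and 11.6% of all genes were called. For the interaction, limma voom called 8 and the Xist share covariate 0, in place of 5, where 30.1% and 1.71% of all genes were called. Leaving out 1 library at a time gave 3 to 8 calls for bortezomib in WT, 0 to 7 for the interaction, 7 in each case for genotype in bortezomib and 0 for the other comparisons. In these fits 3.47% to 19.2% of all genes were called for bortezomib in WT and 2.07% to 16.7% for the interaction. With the replicate block the counts were 8, 0, 0, 7 and 5 in the treatment experiment and 0 in each reporter comparison, so it moved no count of calls. In the treatment experiment the numbers were not shown to pair the libraries, although 9 of 12 correlated best with their own number. Of 1240 member values under alternatives, 1141 kept direction and side and 30 changed sign, none of them called, the largest at 0.153. The cause was not tested. A fit on only the groups compared was not run for the interaction, which uses all 4 groups.

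Sign changes in knockout-labelled bortezomib against DMSO were Cct2 at -0.0012 (length and GC offsets), Cct3 at 0.0078 (relative log expression and DESeq2), 0.0012 (no filter), 0.0047 (only the groups compared) and 0.067 (Xist share), Cct4 at -0.049 (voom) and -0.052 (3 libraries left out), and Cct6a at 0.036 (Xist share). Cct8 was at 0.0066 between genotypes in DMSO (length and GC offsets), and Cct2 at 0.038 in RFP single against double positive (voom). Leaving out 1 library at a time gave log2 ranges of Tcp1 -0.37 to 0.0031, Cct3 -0.27 to 0.15, Cct4 -0.05 to 0.27, Cct6a -0.36 to 0.045, Cct7 -0.35 to 0.021 in knockout-labelled bortezomib against DMSO, Tcp1 -0.25 to 0.062, Cct8 -0.29 to 0.055 between genotypes in DMSO, Cct2 -0.084 to 0.065, Cct4 -0.10 to 0.091 in RFP single against double positive.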
